A study of Mus musculus with 30 samples.

Results

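The comparison set mRNA pulled down with tagged ribosomes of enteric glia (*RiboTag*) against total RNA of the small bowel *muscularis externa* (*ME*), both taken 24 h after intestinal manipulation (IM24h). Its members are the libraries of the count tables whose own group entry is IM24h, 4 of *RiboTag* and 4 of *ME*, out of 29 libraries in these tables and 30 labelled samples of the series. The series also holds naïve mice and mice at 3 h and 72 h after intestinal manipulation, and its naïve *ME* libraries, used in the last comparison, are labelled with another Cre line, B6.Cg-Tg73.12Mvs/J(Gfap-cre), crossed to the same *Rpl22* allele. All 8 libraries carry the same labels for tissue (small bowel *muscularis externa*), treatment (IM24h, abdominal surgery as a model of postoperative ileus) and genotype, a cross of B6 Tg(Sox10-icre/ERT2)388Wdr/J with B6N.129 Rpl22tm1.1Psam/J mice, and differ in the fraction, total RNA as input or pulldown mRNA. By the study's methods the mice were adult males given tamoxifen, the Cre recombinase is driven by *Sox10* sequences and acts only after tamoxifen, and an input was a small aliquot of the cleared lysate from which a pulldown was made. The methods also give a tdTomato reporter allele for this line, which the labels do not list. Which input belongs to which pulldown is not stated for the libraries, and no pairing was used.

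Enteric glia are the neural crest derived support cells of the enteric nervous system, and in the *ME* they surround the neurons of the myenteric plexus and lie along nerve fibres between smooth muscle cells. In *RiboTag* mice, Cre switches the ribosomal protein gene *Rpl22* to a copy that ends in an HA tag, so that ribosomes of the recombined cells, with the mRNA they are translating, can be precipitated with an antibody to HA. A ratio of pulldown to input therefore describes how the mRNA of each gene is spread between tagged ribosomes and the whole tissue. As in any bulk sample, fewer cells of a type and less RNA per cell cannot be told apart.

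The *RiboTag* libraries held 5248936, 4191772, 4063028 and 4845910 estimated counts, and the *ME* libraries 6919913 to 8537035. Levels are given below as CPM, counts scaled to a common library size with the TMM factors of edgeR. AY036118, an entry that overlaps rRNA, took 22.2%, 59.2%, 58.1% and 32.9% of the *RiboTag* totals and 1.33% to 6.501% of the *ME* totals. In *RiboTag* libraries 2 and 3, where it took over 50%, 13560 and 11629 genes had at least 1 count, against 16746 and 16477 in *RiboTag* libraries 1 and 4 and 19200 to 20177 in the *ME* libraries. These 2 libraries stood apart, and each count of genes that leads an account here was also made without them, an alternative chosen after seeing the data. No pair of libraries of a fraction was alike within counting noise (chi-square per degree of freedom 26.7 to 167), so that none was taken for a repeat deposit of another. The labels do not tie libraries to mice, while the study gives its n for these data as mice per condition. A pulldown and an input may come from the same lysate, and p-values measure the spread between these libraries.

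**Figure D1:**
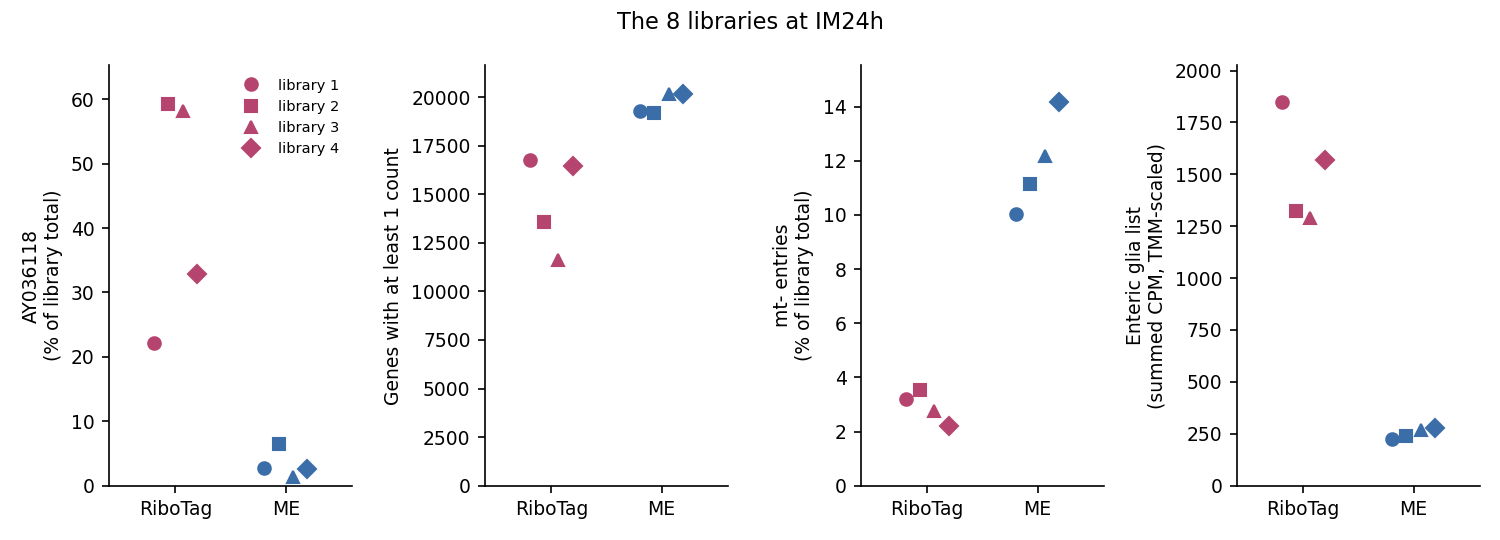
Properties of the 8 libraries at IM24h by fraction, 1 marker per library: the share of AY036118 in the library total (%), how many genes had at least 1 count, the share of mitochondrially encoded entries (%), and the summed level of the enteric glia genes (CPM). RiboTag libraries 2 and 3 show the highest share of AY036118 and the fewest genes, and the summed level of the glia genes lies between 1291 and 1847 CPM in RiboTag and between 226 and 278 CPM in ME.

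Of 20354 genes in both tables, 14642 had enough counts to be tested. At an adjusted p under 0.05 and a difference of more than 2-fold, which is what passing the test means here, 747 genes were higher in *RiboTag* (5.10% of those tested) and 976 were lower (6.67%), together 11.8%. Each count of list members below that comes from this fit is to be read against these shares. A count from another setting is to be read against the totals of that setting, since these differ widely. DESeq2 gave 1534 higher and 1806 lower of the same 14642 genes, and totals of other settings follow below. At an unadjusted p under 0.05 the share in either direction was 27.0%. Every library of one fraction lay above every library of the other for 30.5% of the genes tested, with *RiboTag* above for 8.41% and below for 22.1%. The middle of all genes was itself shifted, with a median log2 difference of -0.30, and levels of a gene list are read against it. Scaled by library totals alone, the median was -0.90 and the split 131 higher and 801 lower; scaled by the 3 reference genes of the study (*Actb*, *Hsp90ab1* and *Rplp1*), it was -1.08 and the split 54 and 428. Without *RiboTag* libraries 2 and 3, 17124 genes were tested and 1345 were higher (7.85%) and 2231 lower, together 20.9%, among them 87.6% of the 747 and 92.3% of the 976. The counts fell to 359, 424, 317 and 323 higher and to 376, 454, 323 and 345 lower when *ME* library 1, 2, 3 or 4 was left out, and 1786 or 1739 were lower without *RiboTag* library 1 or 3.

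By kind of gene, in the GENCODE annotation 84.3% of the genes tested were protein coding and 9.54% were long noncoding RNAs, against 71.5% and 17.7% of the 747 higher genes and 88.1% and 2.46% of the 976 lower ones. Of the 976, 196 had 3 counts or fewer in every *RiboTag* library, a level treated here as the floor of detection. For these only a lower bound of the difference can be given, since 3 counts correspond to 0.977 CPM in *RiboTag* and to 0.287 CPM in *ME*, each the mean over the 4 libraries of what 3 counts are worth in that library.

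**Figure D2:**
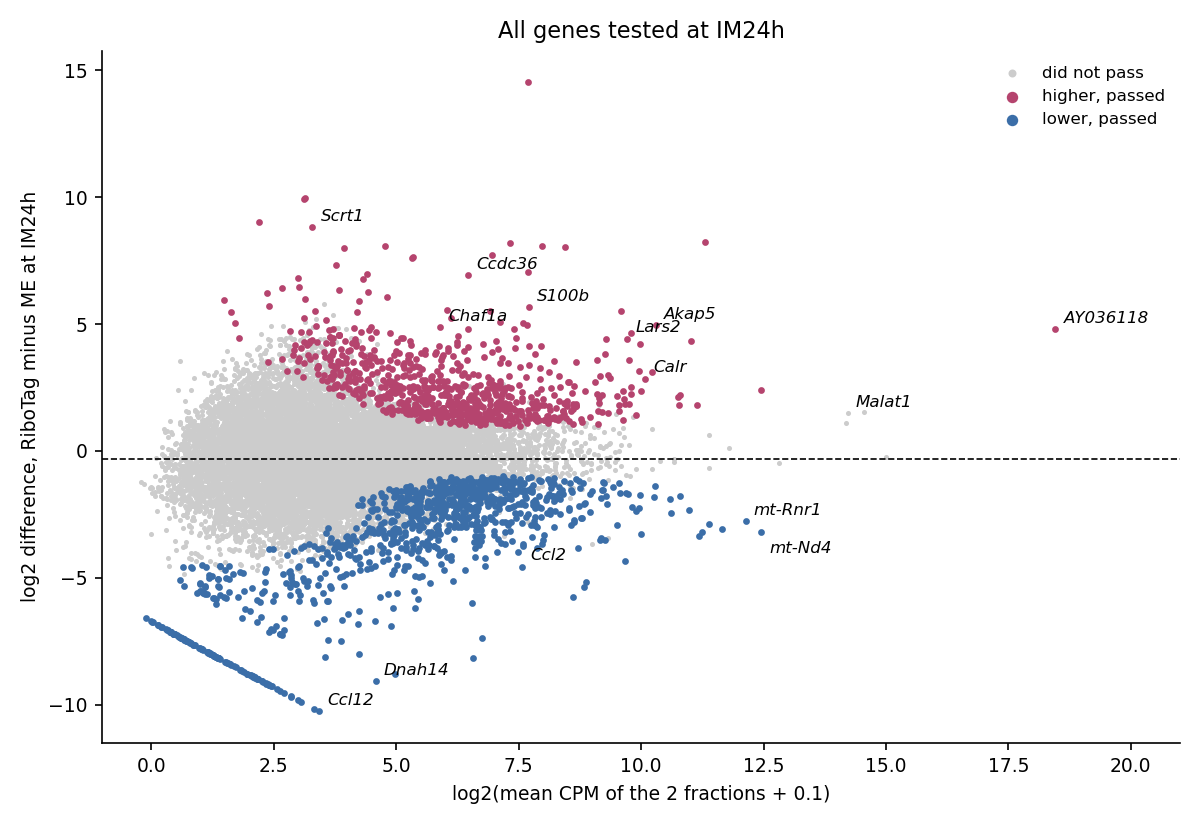
The 14642 genes tested at IM24h, with the mean level of both fractions on the horizontal axis (log2 of CPM + 0.1) and the log2 difference of RiboTag minus ME on the vertical axis; the dashed line marks the median of all genes, -0.30. Coloured points passed the test, 747 above and 976 below, and the straight band at the lower left holds genes with 0 counts in the RiboTag libraries, whose fitted differences are no measure of size.

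Of 20 enteric glia genes 16 were tested, and 8 of them were higher in *RiboTag* and 0 lower, where 5.10% of all genes tested were higher. Among them were *S100b*, a calcium-binding protein, *Gfap*, *Kcna1*, *Scn7a*, *Lgi4*, *Erbb3* and *Sox2*. The summed level of the 20 genes was 1847, 1323, 1291 and 1568 CPM in the *RiboTag* libraries and 226, 239, 271 and 278 CPM in the *ME* libraries, so that the fractions did not overlap. The median log2 difference of the 16 genes was 2.36, which is 2.66 above the median of all genes, and it stayed at 2.66 to 2.69 above it when the libraries were scaled by other factors. Of the 8 genes, *Erbb3* passed in 4 and *Sox2* in 2 of the 8 fits that left out 1 library, and the other 6 passed in all of them. The number that passed did depend on the scaling, since only *S100b* passed with library totals or with the reference genes. Without *RiboTag* libraries 2 and 3, 18 genes of the list were tested, 13 were higher and 1, *Ednrb*, was lower. *Fabp7*, *Col28a1* and *Gfra3* were among those with too few counts to be tested with all 8 libraries.

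*S100b* (chromosome 10, 76253853 to 76261159 in mm10) reached 227, 516, 565 and 333 CPM in the 4 *RiboTag* libraries and 6.39, 10.1, 3.66 and 11.8 CPM in the 4 *ME* libraries. Each pulldown thus lay far above each input, with a mean of 410.2 ± 158 against 7.99 ± 3.66 CPM (SD, n = 4 each; log2 difference 5.68 ± 0.50 (SE), adjusted p = 0.00066; two-sided exact permutation p = 0.0286, the lowest possible with 4 libraries against 4). *Sox10* (chromosome 15, 79154908 to 79165240), the transcription factor whose sequences drive the Cre, showed 488, 42.2, 58.1 and 304 CPM in *RiboTag* and 36.4, 26.02, 67.3 and 67.3 CPM in *ME*. *RiboTag* libraries 1 and 4 were far above all inputs and libraries 2 and 3, the 2 with the large share of AY036118, lay within their range, and *Sox10* did not pass the test (log2 difference 2.18 ± 0.70 (SE), adjusted p = 0.0635). Without libraries 2 and 3 its log2 difference was 3.02 and passed (adjusted p = 0.00254).

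The next were filament and channel genes. *Gfap*, the glial intermediate filament, showed 194, 84.9, 23.99 and 133 CPM in *RiboTag* against 10.2, 13.1, 13.7 and 5.94 CPM in *ME* (log2 difference 3.35 ± 0.59 (SE), adjusted p = 0.00584). Its lowest pulldown was *RiboTag* library 3, and the fractions did not overlap. The sodium channel subunit gene *Scn7a* showed 214, 241, 136 and 177 CPM against 34.3, 40.5, 35.9 and 41.1 CPM (log2 difference 2.34 ± 0.30 (SE), adjusted p = 0.00151). *Kcna1*, a voltage-gated potassium channel, showed 229.8, 61.3, 22.6 and 94.8 against 14.4, 7.56, 10.7 and 13.96 CPM (log2 difference 3.13 ± 0.63 (SE), adjusted p = 0.00965), with library 1 the highest and library 3 the lowest pulldown, still above all inputs.

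Genes of signals and transcription followed. *Lgi4*, a secreted protein of Schwann cells and glia, showed 77.7, 43.6, 45.6 and 107 CPM in *RiboTag* and 9.899, 6.504, 8.99 and 10.9 CPM in *ME* (log2 difference 2.92 ± 0.46 (SE), adjusted p = 0.00354). *Erbb3*, a receptor for neuregulins, showed 83.3, 25.4, 26.4 and 70.1 against 8.099, 15.8, 7.42 and 8.13 CPM (log2 difference 2.38 ± 0.57 (SE), adjusted p = 0.0204). *Sox2*, a transcription factor of neural progenitors and glia, showed 38.3, 13.2, 26.9 and 27.6 against 6.39, 1.72, 6.89 and 1.87 CPM (log2 difference 2.65 ± 0.76 (SE), adjusted p = 0.0415). In all 3 genes the lowest pulldown was above the highest input. Of the 8 genes that did not pass, the cadherin gene *Cdh19* also kept the fractions apart, with 12.4, 10.9, 48.5 and 14.9 against 2.79, 5.64, 3.05 and 9.34 CPM (log2 difference 2.05 ± 0.80 (SE), adjusted p = 0.123), whereas *RiboTag* library 3 had 0 counts of *Foxd3*, *Entpd2* and *Ednrb*. *Ngfr*, the p75 neurotrophin receptor, had log2 difference 0.60 ± 0.90, the transcription factor gene *Foxd3* 0.62 ± 1.05, the ectonucleotidase gene *Entpd2* 1.19 ± 1.02 and the orphan receptor gene *Gpr37l1* 1.24 ± 0.70 (SE). Without *RiboTag* libraries 2 and 3 these genes had 1.345, 1.474, 1.72 and 1.885 and passed (adjusted p = 0.0426, 0.0232, 0.0268 and 0.0382). Leaving out 1 library gave 0.147 to 1.515 for *Gpr37l1*. *Dhh*, a hedgehog ligand of Schwann cells, had 0, 13.2, 105 and 2.67 CPM in the pulldowns, and its log2 difference of 4.799 ± 1.81 was 2.26 without library 3 and 0.30 without libraries 2 and 3. It did not pass with all 8 libraries and passed without *RiboTag* library 1 (adjusted p = 0.041). *Ednrb*, an endothelin receptor, was the 1 tested gene of the list with a negative log2 difference, -1.26 ± 0.93 (SE).

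**Figure D3:**
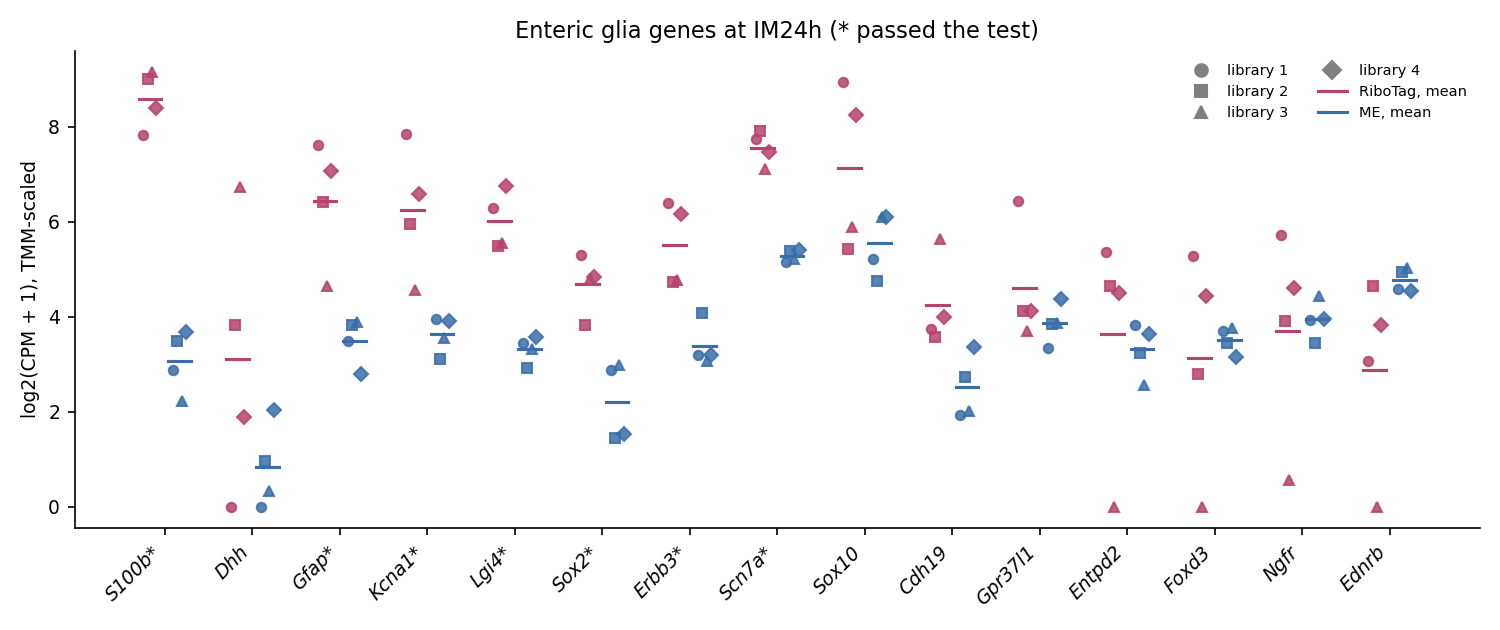
Levels of 15 of the 16 tested enteric glia genes in each library at IM24h, as log2 of TMM-scaled CPM + 1, with RiboTag in red and ME in blue, 1 marker shape per library number and a bar at the mean of the 4 log2 values. The 7 genes with an asterisk passed the test; for S100b all 4 RiboTag libraries lie above 200 CPM and all 4 ME libraries below 12 CPM, whereas for Ednrb, Ngfr and Foxd3 the fractions overlap.

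Genes of enteric neurons, cells that the Cre line is not meant to recombine, were present in both fractions. All 22 genes of the list were tested, 4 were higher in *RiboTag* and 0 lower, and the median log2 difference was 0.33, which is 0.64 above that of all genes. Among the 4 were *Elavl3*, a neuronal RNA-binding protein, *Uchl1*, the ubiquitin hydrolase used as the neuronal marker PGP9.5, and *Syt1*, the calcium sensor of synaptic vesicles. *Uchl1* showed 404, 296, 209 and 567 CPM in *RiboTag* against 103, 128, 87.3 and 56.4 CPM in *ME* (log2 difference 1.98 ± 0.38 (SE), adjusted p = 0.00814), and *Syt1* 218, 146, 168 and 257 against 69.7, 65.9, 61.3 and 56.8 CPM (log2 difference 1.64 ± 0.29 (SE), adjusted p = 0.00596). For both the fractions did not overlap. *Elavl3* showed 78.7, 37.2, 90.2 and 89.04 against 17.01, 19.3, 15.4 and 18.7 CPM (log2 difference 2.07 ± 0.40 (SE), adjusted p = 0.00843), with all pulldowns above all inputs. The neuropeptide genes named by the rule did not pass. *Vip*, a secretory and relaxing peptide of enteric neurons, had 86.9, 89.9, 75.3 and 225 against 225, 209, 259 and 139.6 CPM (log2 difference -0.80 ± 0.39 (SE), adjusted p = 0.214) and *Gal*, which encodes galanin and lay below all inputs in every pulldown, had 143, 31.3, 3.84 and 293 against 545, 567, 462 and 322 CPM (log2 difference -2.001 ± 0.85 (SE), adjusted p = 0.153). The summed level of the neuron genes was 913 to 2362 CPM in *RiboTag* and 1072 to 1569 CPM in *ME*. The 4 no longer passed with library totals or the reference genes, and without *RiboTag* libraries 2 and 3, 9 were higher and 0 lower.

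The genes of the muscle coat and its connective tissue that passed with TMM scaling were lower in *RiboTag*. Of 15 smooth muscle genes 6 were lower and 0 higher (median log2 difference -1.26), against 6.67% lower among all genes tested. DESeq2 gave 7 lower and 3 higher, and edgeR with DESeq2 size factors 6 and 1. *Acta2*, smooth muscle actin, showed 769, 478, 206 and 479.5 CPM in *RiboTag* against 3475, 1326, 1965 and 3785 CPM in *ME* (log2 difference -2.45 ± 0.47 (SE), adjusted p = 0.00824), and *Mylk*, the myosin light chain kinase, 1302, 744, 433 and 703 against 3133, 1611, 2177 and 4053 CPM (log2 difference -1.79 ± 0.42 (SE), adjusted p = 0.0193). In both genes every pulldown lay below every input. *Actg2*, the actin of visceral muscle, overlapped between the fractions with 194, 57.7, 57.6 and 88.2 against 837, 131, 461 and 1364 CPM (log2 difference -2.81 ± 0.65 (SE), adjusted p = 0.018). *Myh11*, the smooth muscle myosin heavy chain, showed 1121, 1421, 450.0 and 629.7 against 1692, 746, 1277 and 2266 CPM (log2 difference -0.72 ± 0.44 (SE), adjusted p = 0.316) and *Tagln*, an actin-binding protein, 2089, 2061, 551 and 563 against 757, 297, 351 and 669 CPM with a positive log2 difference of 1.34 ± 0.52 (SE) that did not pass. Only 3 smooth muscle genes were lower with library totals, 1 with the reference genes and 2 without *RiboTag* libraries 2 and 3, and 3, 3, 3 and 2 when *RiboTag* library 2 or 4 or *ME* library 1 or 4 was left out. The summed level was 3425 to 8454 CPM in *RiboTag* and 6798 to 18842 CPM in *ME*.

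Of 5 genes of interstitial cells of Cajal, the pacemaker cells of the gut, 1 was lower. *Ano1*, their calcium-activated chloride channel, showed 21.5, 0.454, 0 and 1.78 CPM in *RiboTag* against 77.03, 41.3, 77.7 and 178 CPM in *ME* (log2 difference -3.87 ± 1.09 (SE), adjusted p = 0.039). It did not pass with library totals or with the reference genes (adjusted p = 0.0941 and 0.132), so that 0 of the 5 were lower there, and it passed in 2 of the 8 fits that left out 1 library. *Kit*, their receptor tyrosine kinase, showed 66.3, 27.7, 30.2 and 16.7 against 69.7, 75.9, 41.96 and 48.6 CPM (log2 difference -0.74 ± 0.46 (SE), adjusted p = 0.334), with overlap of the fractions. Of 11 fibroblast and *Pdgfra* cell genes tested 3 were lower, *Pdgfra*, *Dcn* and *Lum*, and the median log2 difference was -1.87. With library totals 2 and with the reference genes 1 of them were lower. *Dcn*, the matrix proteoglycan decorin, showed 85.9, 39.95, 10.6 and 50.5 against 375, 296, 404 and 802 CPM (log2 difference -3.32 ± 0.57 (SE), adjusted p = 0.00493). The fibrillar collagen genes *Col1a1*, *Col1a2* and *Col3a1* had log2 differences of -1.19 ± 0.37, -0.77 ± 0.38 and -1.47 ± 0.67 (SE) and did not pass.

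Of 12 genes of resident macrophages tested 4 were lower (*Adgre1*, *C1qb*, *C1qc* and *Cd68*) and 0 higher, with a median log2 difference of -1.44. *C1qc*, a chain of complement C1q, showed 27.8, 5.901, 0 and 28.9 CPM in *RiboTag* against 110.3, 94.9, 123 and 189.9 CPM in *ME* (log2 difference -3.01 ± 0.85 (SE), adjusted p = 0.0393). It did not pass with library totals or with the reference genes (adjusted p = 0.0865 and 0.107), and it passed in 2 of the 8 fits that left out 1 library. *C1qa*, which encodes another chain of the same complex, showed 75.8, 114, 77.7 and 169.8 against 171, 174, 156 and 159 CPM (log2 difference -0.59 ± 0.32 (SE), adjusted p = 0.261), and *Csf1r*, the macrophage growth factor receptor, 43.6, 73.99, 40.8 and 68.8 against 36.2, 27.7, 51.3 and 69.8 CPM (log2 difference 0.30 ± 0.40 (SE), adjusted p = 0.682, and -0.44 with library totals). The value of -0.44 for *Csf1r* lay above the median of all genes with library totals, -0.90. *C1qc* kept the fractions apart and the other 2 genes did not, and whether their ratios differ was not tested. Of 11 genes of recruited monocytes and macrophages 5 were lower (among them *Ccr2*, *Fn1*, *Plac8* and *Spp1*) and 0 higher, with a median of -1.26. *Ccr2*, the receptor that brings monocytes into tissue, had a narrow range of inputs, 133, 131, 130.2 and 129 CPM, above the pulldowns at 65.3, 34.5, 48.5 and 68.8 CPM (log2 difference -1.26 ± 0.31 (SE), adjusted p = 0.0227), and passed in 4 of the 8 fits that left out 1 library. *Fn1*, fibronectin, showed 593, 519, 315 and 434 against 1826, 1123, 1282 and 1977 CPM (log2 difference -1.74 ± 0.33 (SE), adjusted p = 0.00767). With library totals 1 resident and 3 recruited genes were lower, and with the reference genes 1 of each list. The summed level of the recruited list was 526 to 1059 CPM in *RiboTag* and 1796 to 2746 CPM in *ME*, and that of the resident list 205 to 374 and 519 to 781 CPM. Of 8 neutrophil and 2 lymphocyte genes tested 0 passed in edgeR, with 1 of each at an unadjusted p under 0.05 and 1 of each by DESeq2. Of the neutrophil genes 2 were lower without *RiboTag* libraries 2 and 3. Their summed levels were 16.98 to 104 and 0 to 7.35 CPM in *RiboTag* against 59.8 to 230 and 9.37 to 22.4 CPM in *ME*.

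The chemokine genes that passed were all lower in *RiboTag*. Of 18 genes tested 5 were lower and 0 higher (median log2 difference -2.04), and 17 of the 18 had a negative log2 difference. *Ccl2*, the main attractant of *Ccr2* monocytes, showed 3.81, 12.7, 0.96 and 43.2 CPM in *RiboTag* against 268, 512, 503 and 176 CPM in *ME* (log2 difference -4.56 ± 0.89 (SE), adjusted p = 0.00844). The related *Ccl7* showed 6.73, 10.9, 2.88 and 23.6 against 66.1, 176, 126 and 44.96 CPM (log2 difference -3.21 ± 0.65 (SE), adjusted p = 0.0102) and *Ccl6* 127, 70.8, 74.8 and 69.9 against 186, 144, 329 and 347 CPM (log2 difference -1.55 ± 0.37 (SE), adjusted p = 0.0204). All pulldowns lay below all inputs for these 3 genes. *Ccl12* had 0 counts in every pulldown against 12.4, 27.9, 31.8 and 13.2 CPM in the inputs and was at least 21.8-fold lower (adjusted p = 0.0048), and *Cx3cl1*, a membrane-bound chemokine, had 0 counts against 6.39, 7.94, 8.11 and 10.7 CPM and was at least 8.47-fold lower (adjusted p = 0.0127). *Ccl9* was also below all inputs in every pulldown but did not pass (log2 difference -1.67 ± 0.61 (SE), adjusted p = 0.101). When *ME* library 3 or 4 was left out, 3 of the chemokine genes passed. Of 8 cytokine genes tested 0 passed in edgeR, with 2 lower at an unadjusted p under 0.05 and 2 by DESeq2, and their median was -1.24. Without *RiboTag* libraries 2 and 3, 1 was lower.

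Genes that the study names for acute gliosis went both ways, and their list had a median log2 difference of -0.08. Of 16 tested, 2 were higher and 4 lower, with library totals 1 and 3, and with the reference genes 1 and 1. Beside *Gfap* the higher one was *Nes*, the progenitor filament nestin, with 185, 385, 209.7 and 358 CPM in *RiboTag* against 31.3, 27.6, 25.3 and 18.3 CPM in *ME* (log2 difference 3.47 ± 0.36 (SE), adjusted p = 0.000803). *Vim*, the filament vimentin that mesenchymal cells also express, was in contrast lower, with 754, 315, 104 and 296 against 1108, 852, 1481 and 1195 CPM (log2 difference -1.66 ± 0.50 (SE), adjusted p = 0.0497). *Vim* was close to the threshold. It no longer passed with library totals, with the reference genes, without the rRNA entries or without *RiboTag* libraries 2 and 3 (adjusted p = 0.109, 0.167, 0.0568 and 0.0842), and it passed in 2 of the 8 fits that left out 1 library. The metallothionein gene *Mt2* showed 119, 29.5, 87.3 and 180.1 against 329.5, 1157, 871 and 376 CPM (log2 difference -2.71 ± 0.57 (SE), adjusted p = 0.0119) and its neighbour *Mt1* 209.7, 208, 226 and 598 against 342, 1137, 807 and 394 CPM (log2 difference -1.11 ± 0.48 (SE), adjusted p = 0.16). *Socs3*, the feedback inhibitor of IL-6 type signalling, showed 6, 0.454, 0 and 10.7 against 37.2, 48.2, 99.9 and 114 CPM (log2 difference -4.03 ± 0.94 (SE), adjusted p = 0.0187). *Cd44*, the hyaluronan receptor, showed 93.2, 93.96, 46.1 and 147 against 265, 292, 365 and 258 CPM (log2 difference -1.63 ± 0.36 (SE), adjusted p = 0.0141). *Nfkbia*, the NF-kappaB inhibitor, overlapped between the fractions, and its log2 difference of 0.14 ± 0.39 (SE) turned to -0.59 with library totals and -0.78 with the reference genes. The medians of all genes in those fits were -0.90 and -1.08. The study drew its gliosis genes from earlier publications and from its own pulldowns at 3 h, which belong to this series, so their list is not independent evidence of a direction.

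Of 22 replication and mitosis genes tested 1 was higher and 2 were lower (median -0.29), where 5.10% and 6.67% of all genes tested were. It was 2 in each direction with DESeq2 and without *RiboTag* libraries 2 and 3. *Chaf1a*, a subunit of the factor that loads histones on new DNA, showed 7.76, 177, 169 and 107 CPM in *RiboTag* against 1.98, 4.304, 5.496 and 3.74 CPM in *ME* (log2 difference 4.88 ± 0.81 (SE), adjusted p = 0.00428), with library 1 far below the other pulldowns but above the inputs. *Top2a*, the topoisomerase of dividing cells, showed 27.2, 124, 36.9 and 180.1 against 35.6, 22.2, 31.7 and 48.03 CPM (log2 difference 1.42 ± 0.57 (SE), adjusted p = 0.131). *Mcm3* and *Mcm7*, subunits of the replicative helicase, had log2 differences of 1.39 ± 0.52 and 0.88 ± 0.33 (SE) and did not pass, though every pulldown lay above every input for *Mcm7*. *Pcna*, the sliding clamp, was lower, with 24.9, 20.9, 21.6 and 17.1 against 77.03, 44.9, 54.6 and 49.9 CPM (log2 difference -1.42 ± 0.39 (SE), adjusted p = 0.0345), and passed in 3 of the 8 fits that left out 1 library. *Ccne1*, a cyclin of the entry into S phase, had at most 1 count in any pulldown against 5.22, 8.896, 8.03 and 8.903 CPM in the inputs, at least 7.94-fold lower (adjusted p = 0.0191).

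Of 8 myelin and Schwann lineage genes tested 2 were higher, *Pou3f1* among them, and 0 lower, where 5.10% of all genes tested were higher. None of the list passed with library totals or with the reference genes, and 1 was higher without the rRNA entries. *Pou3f1*, a transcription factor of Schwann cells before they form myelin, showed 24.6, 4.54, 7.197 and 19.8 CPM in *RiboTag* against 1.26, 2.296, 1.48 and 1.21 CPM in *ME* (log2 difference 3.16 ± 0.93 (SE), adjusted p = 0.048), and passed in 2 of the 8 fits that left out 1 library. The structural myelin genes *Mbp* and *Pmp22* had log2 differences of 0.69 ± 0.99 and -2.65 ± 1.17 (SE), and neither passed. Among neural adhesion and basement membrane genes, 2 of 17 tested were higher and 4 lower, with library totals 1 and 4, and with the reference genes 1 and 2. It was 4 and 4 with DESeq2 and 6 and 4 without *RiboTag* libraries 2 and 3. *Ncam1*, the neural cell adhesion molecule, showed 398, 227, 174 and 222 against 64.3, 78.8, 64.6 and 112 CPM (log2 difference 1.68 ± 0.34 (SE), adjusted p = 0.0107), which did not pass with library totals or with the reference genes (adjusted p = 0.228 and 0.428), and *Cadm4*, an adhesion molecule of Schwann cells that binds axons, 243, 241, 84.9 and 116 against 8.099, 7.84, 4.27 and 4.18 CPM (log2 difference 4.81 ± 0.49 (SE), adjusted p = 0.000803). The 4 genes of the list that were lower encode chains of laminin and collagen IV. *Lamc1* showed 77.4, 54.5, 39.3 and 73.5 against 312, 276, 262 and 259 CPM (log2 difference -2.18 ± 0.30 (SE), adjusted p = 0.00205), *Col4a2* had a log2 difference of -1.77 ± 0.36 (SE), *Col4a1* of -1.24 ± 0.27 and *Lamb1* of -1.18 ± 0.32, and the pulldowns lay below the inputs in each.

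For the other cell types of the gut wall few genes passed. Of 13 endothelial genes 1 was higher and 1 lower, where 5.10% and 6.67% of all genes tested were. They were *Cldn5*, a tight junction protein, with 9.37, 14.1, 25.9 and 10.7 CPM in *RiboTag* against 1.62, 1.91, 2.01 and 2.31 CPM in *ME* (log2 difference 2.92 ± 0.84 (SE), adjusted p = 0.0418), and *Esam*, an adhesion molecule, with 1.32, 0, 0 and 0 against 22.1, 12.8, 14.1 and 20.8 CPM (log2 difference -5.32 ± 1.28 (SE), adjusted p = 0.0211). *Cldn5* did not pass with library totals, neither passed with the reference genes, and each passed in 4 of the 8 fits that left out 1 library. The median of the endothelial list, 0.44, lay 0.74 above that of all genes, and 0.06 and 0.01 above it with library totals and the reference genes. The direction turned without *RiboTag* libraries 2 and 3, where the median relative to all genes was -0.30 and 1 gene was higher and 3 lower, and DESeq2 gave 2 higher and 3 lower. Of 16 epithelial genes tested 3 were lower, *Apoa4*, *Reg3b* and *Reg3g*, and 0 higher, and 2 were lower with library totals or with the reference genes, 6 with DESeq2 and 7 without *RiboTag* libraries 2 and 3. The lectin genes *Reg3b* and *Reg3g*, which resemble each other in sequence, had log2 differences of -3.68 ± 0.88 and -3.83 ± 0.85 (SE). Epithelial genes summed to 51.3 to 164 CPM in *RiboTag* and 258 to 855 CPM in *ME*, although the mucosa had been removed. Of 7 mesothelial and 4 adipocyte genes tested 0 passed by edgeR or DESeq2, and 0 at an unadjusted p under 0.05. An adipocyte gene, 1 of the 4, was lower without *RiboTag* libraries 2 and 3. Of 5 red blood cell genes *Hbb-bs*, a beta globin gene, was lower, with 14.2, 7.26, 0.48 and 3.56 against 53.5, 44.6, 113 and 316 CPM (log2 difference -4.31 ± 0.86 (SE), adjusted p = 0.00975). It did not pass with the reference genes (adjusted p = 0.0512), and DESeq2 gave 2 lower genes of this list. The part of these cells in the other differences was not tested.

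The study also asks about receptors for transmitters of sympathetic nerves and injured cells. Of 5 adrenergic receptor genes tested 0 passed in edgeR, with 1 at an unadjusted p under 0.05 and 1 by DESeq2, and the list summed to 13.6 to 130 CPM in *RiboTag* and 22.7 to 45.1 CPM in *ME*. Of 15 purinergic receptor and ectonucleotidase genes 1 was lower, *Adora2b*, an adenosine receptor, with 0 counts in every pulldown against 3.24, 7.08, 7.502 and 7.04 CPM in the inputs (at least 6.36-fold lower, adjusted p = 0.0168). That is 1 in 15, where 6.67% of all genes tested were lower, and *Adora2b* passed in 4 of the 8 fits that left out 1 library. DESeq2 gave 1 higher and 2 lower, and 1 and 3 passed without *RiboTag* libraries 2 and 3.

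Of 15 mitochondrially encoded genes 13 were lower in *RiboTag* and 0 higher. These RNAs are made inside mitochondria, where the mRNAs among them are translated by ribosomes that do not contain RPL22. The median log2 difference was -2.65, and the 13 kept the fractions apart. *mt-Nd4*, a subunit of respiratory complex I, showed 1580, 647, 901 and 1243 CPM in *RiboTag* against 6541, 6415, 11650 and 15730 CPM in *ME* (log2 difference -3.21 ± 0.47 (SE), adjusted p = 0.00249). *mt-Rnr1*, the small mitochondrial rRNA, showed 499.5, 1755, 1692 and 648 against 7751, 8670, 7831 and 7082 CPM (log2 difference -2.77 ± 0.47 (SE), adjusted p = 0.00493). The 2 that did not pass were *mt-Rnr2*, the large mitochondrial rRNA (log2 difference -0.25 ± 0.60 (SE), adjusted p = 0.828), and *mt-Co3*, a subunit of cytochrome oxidase (log2 difference -0.49 ± 0.38 (SE), adjusted p = 0.436), and both overlapped between the fractions. The *mt-Rnr2* value was -1.28 with library totals and -1.45 with the reference genes (adjusted p = 0.121 and 0.0999). Without *RiboTag* libraries 2 and 3 it was -1.49 and passed (adjusted p = 0.0496), and 14 of the list were lower. With library totals or the reference genes 11 of the 15 were lower, and 10 to 13 when single libraries were left out.

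Of 79 cytosolic ribosomal protein genes tested, out of 85 on the list, 32 were lower and 3 higher, with a median log2 difference of -1.07. Many of these genes have processed pseudogenes of near-identical sequence, with which reads can be shared, so single values are uncertain. *Rpl22*, which encodes the tagged protein, showed 42.2, 24.5, 15.4 and 38.1 CPM in *RiboTag* against 198, 206, 189 and 169.7 CPM in *ME* (log2 difference -2.66 ± 0.36 (SE), adjusted p = 0.00199), and the counts do not tell the tagged from the untagged copy. The 3 higher genes were *Rps9*, with 637, 3007, 4243 and 2998 against 873, 1047, 648 and 525 CPM (log2 difference 1.82 ± 0.50 (SE), adjusted p = 0.0368), *Rpl24* (log2 difference 1.42 ± 0.42 (SE), adjusted p = 0.048) and *Rps15* (log2 difference 1.23 ± 0.33 (SE), adjusted p = 0.0341), which passed in 1, 1 and 2 of the 8 fits that left out 1 library. With library totals 24 of the list were lower and 0 higher. For *Rps9* and *Rpl24* the first pulldown lay within the inputs, and without *RiboTag* libraries 2 and 3, 28 of the list were lower and 0 higher. With the reference genes 12 were lower and 0 higher, and 15, 21, 15 and 13 were lower when *ME* library 1, 2, 3 or 4 was left out.

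RNAs that are not translated were present in the pulldowns. Of 9 nuclear long noncoding RNAs tested 2 were higher and 0 lower. *Neat1*, the scaffold of paraspeckles, showed 507, 905, 2483 and 2013 CPM in *RiboTag* against 252, 327, 371 and 289 CPM in *ME* (log2 difference 2.25 ± 0.46 (SE), adjusted p = 0.0111), and *Meg3*, an imprinted long noncoding RNA, 1186, 878, 1429 and 1001 against 397, 322, 315 and 465 CPM (log2 difference 1.58 ± 0.29 (SE), adjusted p = 0.00713). *Malat1*, an RNA of nuclear speckles, was among the 5 entries with the most counts in *RiboTag* and did not pass (log2 difference 1.48 ± 0.52 (SE), adjusted p = 0.0882). None of the 9 passed with library totals or the reference genes. Of 15 host genes of small nucleolar RNAs 1 was higher and 3 were lower (median -1.41). The split was 1 and 5 with DESeq2 and 0 and 7 without *RiboTag* libraries 2 and 3. *Gas5*, a host gene whose spliced RNA is short-lived when translated, showed 34.98, 15.4, 6.24 and 52.98 against 202, 208, 189 and 172 CPM (log2 difference -2.79 ± 0.54 (SE), adjusted p = 0.00813). *Snhg4* went the other way, with 0.878, 112, 316 and 98.8 against 9.09, 6.6, 14.7 and 8.79 CPM (log2 difference 3.74 ± 1.04 (SE), adjusted p = 0.0376), although library 1 lay below the inputs. It did not pass with library totals, with the reference genes or without *RiboTag* libraries 2 and 3 (adjusted p = 0.132, 0.22 and 0.134), and it passed in 1 of the 8 fits that left out 1 library. *Snhg15* and *Epb41l4aos* were near or at 0 counts in every pulldown and were at least 5.73-fold and 4.04-fold lower (adjusted p = 0.033 and 0.0368). They passed in 2 and 3 of the 8 fits that left out 1 library.

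Of 7 entries that overlap rRNA 5 were higher and 0 lower, with a median log2 difference of 4.43. The AY036118 level differed with a log2 difference of 4.801 ± 1.08 (SE, adjusted p = 0.0158), and passed in 4 of the 8 fits that left out 1 library. *Gm42418*, at the same rDNA-like locus, showed 709, 1631, 4075 and 424 against 75.9, 91.5, 51.7 and 52.98 CPM (log2 difference 4.65 ± 0.68 (SE), adjusted p = 0.00244). *Lars2*, the mitochondrial leucyl-tRNA synthetase gene, whose transcript holds a stretch that resembles rRNA, showed 488, 2043, 2260 and 1660 against 78.1, 93.6, 73.7 and 54.5 CPM (log2 difference 4.43 ± 0.49 (SE), adjusted p = 0.000812), and its counts cannot be assigned to its mRNA with certainty. When these entries were left out before scaling, 674 genes were higher and 953 lower.

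Of 15 secretory pathway and translocon genes tested 2 were higher and 5 lower (median -0.59). With library totals 0 were higher and 3 lower, and with the reference genes 0 and 2. *Calr*, the chaperone calreticulin, showed 222, 2761, 2398 and 2223 CPM in *RiboTag* against 219.5, 225, 305 and 303 CPM in *ME* (log2 difference 2.85 ± 0.60 (SE), adjusted p = 0.0123), with *RiboTag* library 1 at the level of the inputs and the others far above it. Its log2 difference was 1.86 with library totals and 1.38 with the reference genes, and it did not pass there (adjusted p = 0.0609 and 0.165). *Pdia4*, a disulfide isomerase, showed 94.7, 205, 155 and 133 against 32.9, 44.1, 44.1 and 25.4 CPM (log2 difference 2.002 ± 0.35 (SE), adjusted p = 0.00547), with no overlap, and did not pass with library totals or with the reference genes (adjusted p = 0.119 and 0.288). *Hspa5*, the chaperone BiP, was lower (log2 difference -1.23 ± 0.32 (SE), adjusted p = 0.0287; not without *RiboTag* libraries 2 and 3, adjusted p = 0.0531), as were *Pdia6*, a disulfide isomerase, *Ssr3* and *Ssr4*, subunits beside the translocon, and *Spcs1*, a signal peptidase subunit. *Hsp90b1* and *Canx*, chaperones of the same compartment, did not pass (0.88 ± 0.36 and 1.13 ± 0.36, log2 difference and SE, which turned to -0.22 and -0.03 with the reference genes). The median of all genes in that fit was -1.08. Among the 3 reference genes of the study *Hsp90ab1*, a cytosolic chaperone, was itself higher, with 1930, 9255, 15450 and 10710 against 1948, 2387, 1704 and 1051 CPM (log2 difference 2.397 ± 0.57 (SE), adjusted p = 0.0198). It did not pass with library totals (log2 difference 1.44, adjusted p = 0.103), and it passed in 4 of the 8 fits that left out 1 library. With the reference genes its log2 difference was 1.13 and did not pass (adjusted p = 0.151). *Hsp90ab1* is itself part of that scale, so that fit cannot test it. *Actb*, cytoplasmic actin, had 1.095 ± 0.47 and *Rplp1*, a protein of the ribosomal stalk, 0.11 ± 0.43, which turned to -0.80 with library totals, and neither passed. The median of all genes with library totals was -0.90.

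**Figure D4:**
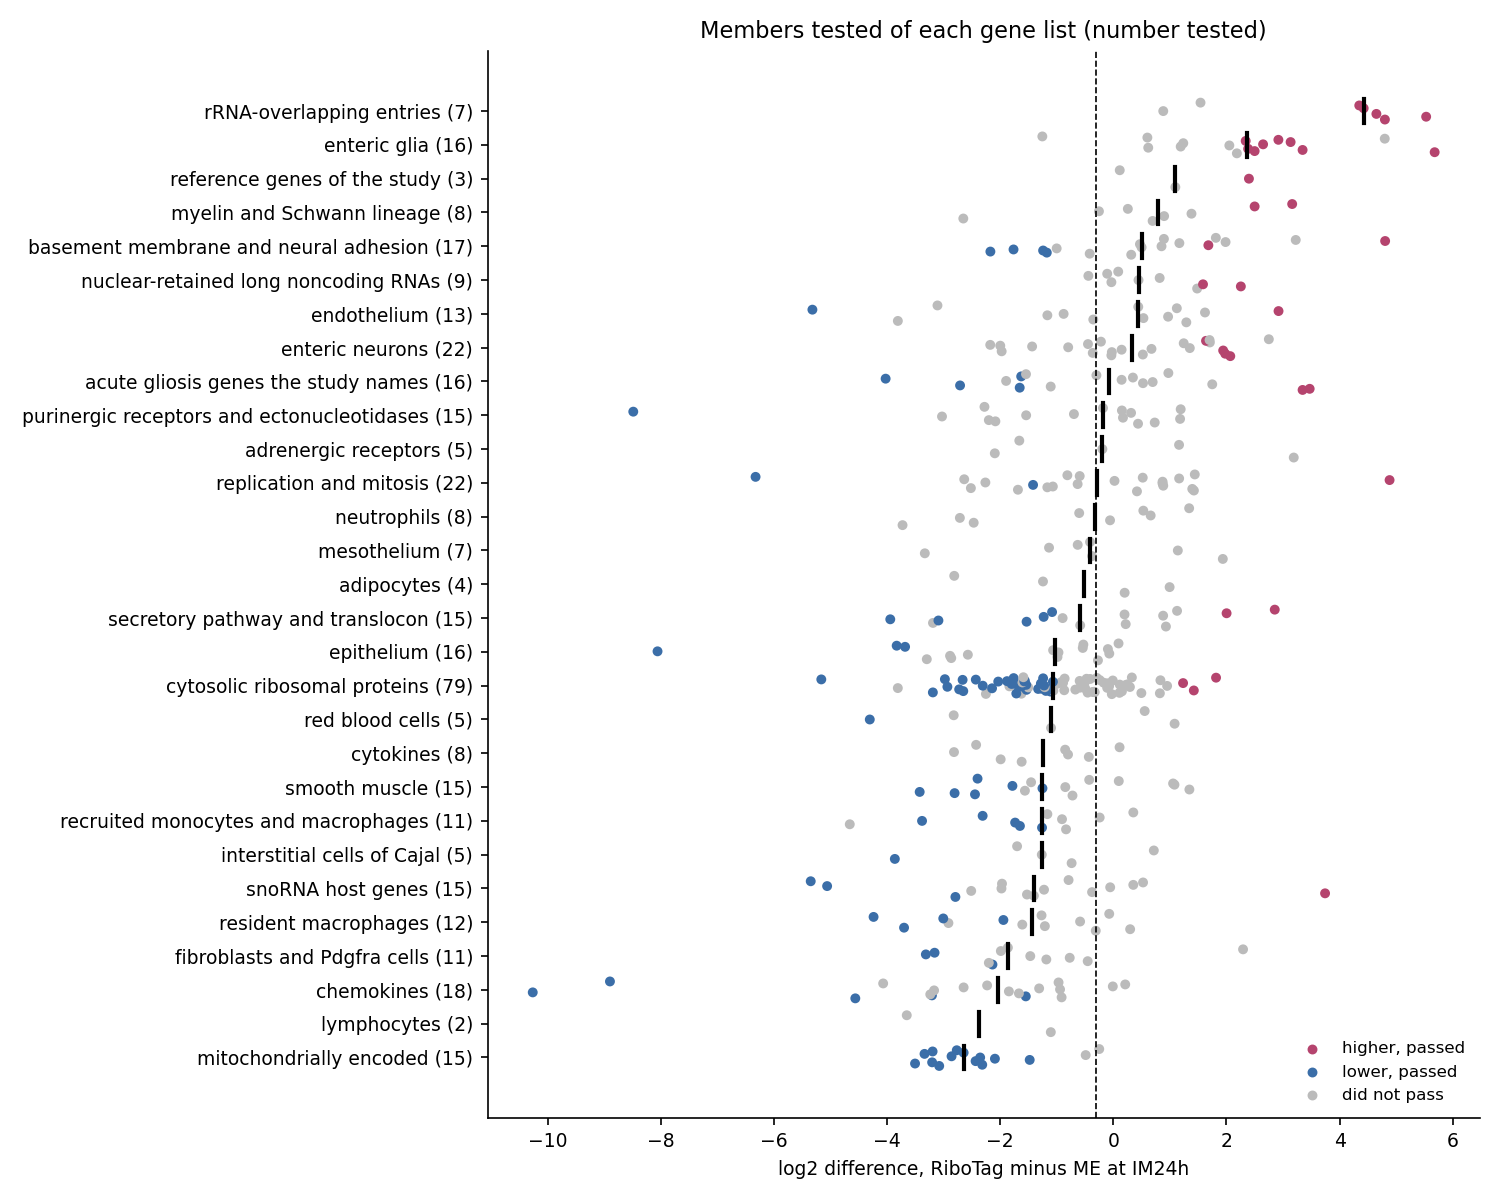
Log2 difference of RiboTag minus ME at IM24h for each tested member of the gene lists, 1 point per gene, with the number tested in brackets, a black bar at the median of the list and a dashed line at the median of all genes (-0.30). Red and blue points passed the test; the enteric glia list has its median at 2.36 with 8 red points, and the mitochondrially encoded list has its median at -2.65 with 13 blue points.

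Most of the largest fitted differences lay outside the lists. By the rule for naming genes, the 10 largest positive ones were *Scrt1*, *Rmrp*, *Olfr1181*, *Ccdc36*, *Acp4*, *Muc6*, *S100b*, *Prrt2*, *Akap5* and *Kcns2*. *Scrt1*, a neuronal zinc finger repressor, showed 6.88, 23.6, 30.2 and 16.3 CPM in *RiboTag* and at most 1 count in any input, and was at least 67.02-fold higher (adjusted p = 0.00265). *Ccdc36*, a gene of meiotic recombination, showed 192, 232, 219.7 and 58.5 against 0.9, 2.49, 1.396 and 0.879 CPM (log2 difference 6.93 ± 0.60 (SE), adjusted p = 0.00066). *Akap5*, a scaffold that holds protein kinase A near its substrates, was the most abundant of the 10, with 1588, 3606, 3783 and 825 against 81.8, 54.6, 61.9 and 116 CPM (log2 difference 4.96 ± 0.55 (SE), adjusted p = 0.000844). *Prrt2*, a presynaptic membrane protein, showed 92.2, 190.2, 215 and 42.7 against 4.77, 4.59, 1.48 and 3.297 CPM (log2 difference 5.24 ± 0.62 (SE), adjusted p = 0.00104). *Kcns2*, a modulatory potassium channel subunit, had 5.12, 20.4, 17.8 and 36.1 against 0.63, 0.861, 0.611 and 0.44 CPM (log2 difference 4.92 ± 0.94 (SE), adjusted p = 0.00803). All 4 pulldowns were above all 4 inputs in each of the 10 genes, as the rule asks. *Muc6*, a gastric mucin, *Olfr1181*, an olfactory receptor, and *Rmrp*, the RNA of a ribonuclease, each had 1 pulldown far above the other 3. *Muc6* showed 3.81, 25.4, 162 and 28.9 CPM, *Olfr1181* 2.78, 11.4, 81.1 and 12.9 CPM and *Rmrp* 13.9, 70.8, 20.2 and 16.9 CPM in *RiboTag*. *Acp4*, an acid phosphatase, had 4.24, 35.9, 31.7 and 40.1 against 1.08, 0.191, 0 and 0 CPM (log2 difference 6.36 ± 1.38 (SE), adjusted p = 0.0137).

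The 10 genes named for the most negative fitted difference all had 0 counts in every pulldown, where a fitted difference is no measure of size. After *Ccl12* they included *Acyp1*, an acylphosphatase, *Tmem18*, a membrane protein of the nuclear envelope, *Iah1*, an esterase, *Lrrc61*, *Prg4*, the joint and mesothelial proteoglycan lubricin, *Tex30*, *Isyna1*, the enzyme that makes inositol phosphate, and *Med6*, a Mediator subunit. The inputs of *Acyp1* held 13.2, 17.7, 14.2 and 20.6 CPM, which makes it at least 16.8-fold lower (adjusted p = 0.006), and the bounds of the others named after it ran from 10.1-fold for *Med6* to 14.6-fold for *Tmem18*. In *Prg4* the bound of 12.5-fold rested on *ME* library 4, since the 4 inputs held 4.59, 1.63, 5.67 and 36.9 CPM.

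To ask whether the ratio of the fractions was the same at 72 h, the difference of the log2 ratios at IM24h and IM72h was tested over 16077 genes. It was higher at IM24h for 702 genes (4.37%) and lower for 54 (0.336%), together 4.70%. The pulldowns at IM72h hold less information, with 58.0% to 80.1% AY036118 and 8814 to 11729 genes detected, and the median log2 ratio of all genes was -0.22 at IM24h and -0.82 at IM72h in this joint fit. Without *RiboTag* libraries 2 and 3 of IM24h the counts were 2279 and 141. Without any 1 of the 8 *ME* libraries 30 to 95 were higher and 6 to 8 lower. Without *RiboTag* IM24h library 2 or 3 or *RiboTag* IM72h library 2 or 3 the higher count was 1071, 1559, 2121 and 1117, and without any 1 of the 4 *RiboTag* IM72h libraries the lower count was 108 to 214. With the reference genes 98 were higher and 13 lower. The part of the shallower pulldowns in these differences was not tested.

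Of 18 enteric glia genes in this fit 4 differed, all toward a higher ratio at IM24h, where their median was 2.31 against -0.83 at IM72h. For *Sox10* the ratio was 2.21 at IM24h and -4.11 at IM72h (log2, difference 6.32 ± 1.27 SE, adjusted p = 0.0151). The IM72h pulldowns held 11.8, 2.62, 0 and 1.23 CPM of *Sox10* and the IM72h inputs 60.9, 82.7, 113 and 28.4 CPM. *Gpr37l1* (0, 0.437, 0 and 0 CPM in the IM72h pulldowns), *Ngfr* (0, 0.874, 0.946 and 0 CPM) and *Sox2* (0 counts in all 4) were likewise at or near 0 in the IM72h pulldowns and passed (adjusted p = 0.0163, 0.0489 and 0.0319). *S100b* had log2 ratios of 5.76 and 5.33 at the 2 times, with 1020, 101, 750.0 and 1075 CPM in the IM72h pulldowns (difference 0.44 ± 0.76 SE, adjusted p = 0.82). *Scn7a* had 2.41 and 2.59 (difference -0.18 ± 0.74 SE). The 4 genes that passed were therefore low or at 0 in the IM72h pulldowns, while *S100b* was not. Low levels there were also seen in glia genes that did not pass. *Gfap* had 0, 0, 16.1 and 9.21 CPM in the IM72h pulldowns (difference 5.02 ± 1.49 SE, adjusted p = 0.0553) and *Lgi4* 0, 0, 0.946 and 37.5 CPM (difference 4.07 ± 1.66 SE, adjusted p = 0.139). In the 16 fits that left out 1 library *Sox10* passed in 13, *Gpr37l1* in 12, *Sox2* in 8 and *Ngfr* in 5, so that none of the 4 passed in all of them. By DESeq2 5 glia genes differed.

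A few rRNA genes and entries that overlap rRNA also differed, most of them the other way. The mitochondrial rRNA genes had lower ratios at IM24h than at IM72h, *mt-Rnr1* by -5.77 ± 0.53 and *mt-Rnr2* by -3.802 ± 0.53 on the log2 scale (SE), and both passed in each fit that left out 1 library. The inputs of *mt-Rnr2* held 20030 to 41090 CPM at IM24h and 2415 to 3377 CPM at IM72h, while its pulldowns overlapped between the times. For *mt-Rnr1* the inputs held 6029 to 7228 and 559 to 767 CPM, and the pulldowns 427 to 1580 and 4216 to 7857 CPM. *Lars2*, whose pulldowns overlapped between the times, differed by -2.76. Its inputs held 46.4 to 78.1 CPM at IM24h and 8.2 to 11.4 CPM at IM72h. *Gm42418* differed by 4.59, in the direction of the glia genes. Of 18 neural adhesion and basement membrane genes 1, *Ncam1*, was higher in ratio at IM24h by 2.94 ± 0.60 (SE, adjusted p = 0.0163). Of 22 replication genes 2 were, *Ccne2* and *Mcm7*, the latter by 4.92 ± 1.33 (SE, adjusted p = 0.0416), where 4.37% of all genes tested were. *Mcm7* passed in 6 of the 16 fits that left out 1 library. Other lists also held genes with a higher ratio, among them 6 of 78 ribosomal protein genes and 2 of 15 snoRNA host genes. In the interstitial cell, resident macrophage, endothelial and epithelial lists 1 each was higher (of 5, 11, 13 and 17). Of 15 smooth muscle genes 0 passed, with 0 at an unadjusted p under 0.05 and 0 by DESeq2, and of 22 neuron genes 0 passed in edgeR, with 4 at an unadjusted p under 0.05 and 2 by DESeq2. The 5 largest differences upward by the naming rule were *Msto1*, *Pcgf2*, *Ddx56*, *Wrap53* and *Naa80*, all with 0 counts in the 4 IM72h pulldowns, and downward *Sec61g*, *Kank3*, *Tmem215*, *Dnah14* and *Hmgn2*, all with at most 4 counts in each IM24h pulldown. Fitted sizes against such levels are not measures of a fold. *Dnah14*, an axonemal dynein gene, had 34.9, 18.8, 35.9 and 0 CPM in the IM72h pulldowns.

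**Figure D5:**
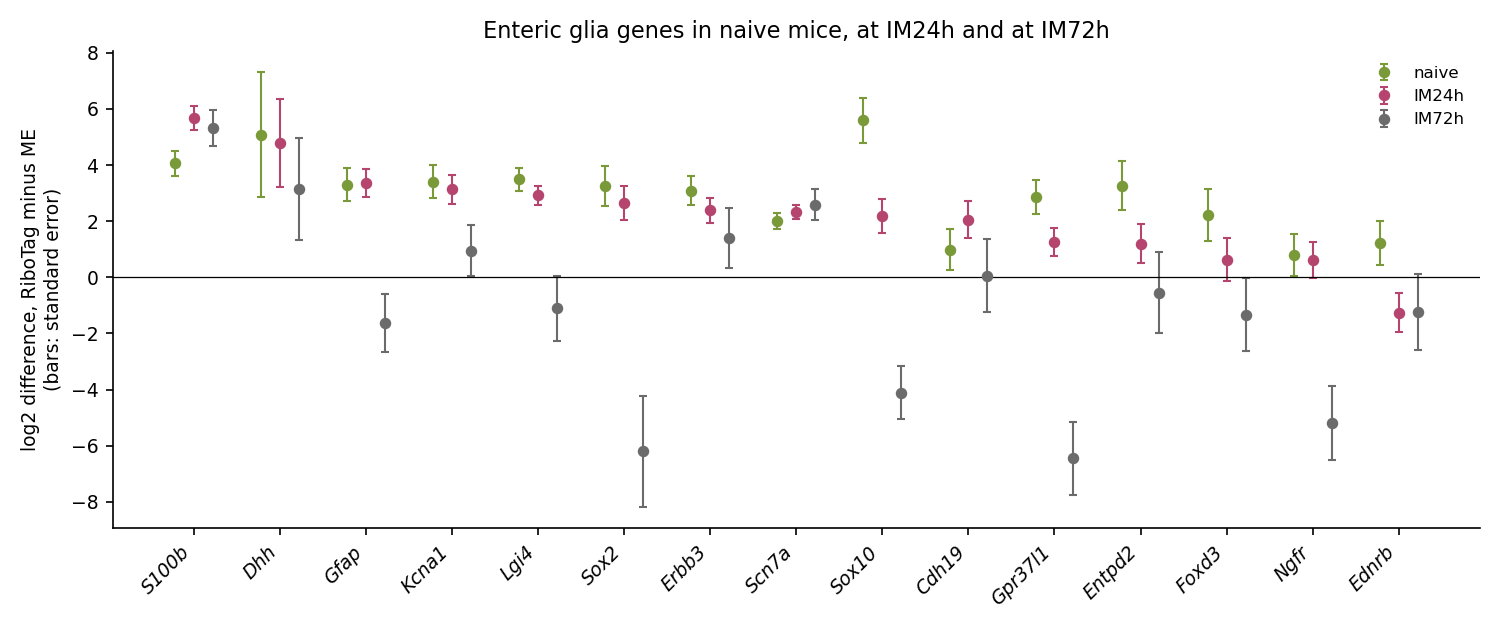
Log2 difference of RiboTag minus ME for 15 enteric glia genes in naïve mice (3 libraries a fraction), at IM24h and at IM72h (4 libraries a fraction each), with bars of 1 standard error; naïve and IM24h values come from 1 joint fit and IM72h values from another. S100b, Dhh and Scn7a lie above 2 at IM72h, whereas Sox10, Sox2, Gpr37l1 and Ngfr lie below -4 at IM72h.

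The ratio was compared with that of naïve mice over 17508 genes, of which 47 (0.268%) had a higher and 46 (0.263%) a lower ratio at IM24h. The naïve *ME* libraries are labelled with another Cre line (Gfap-cre), whereas the naïve pulldowns are of the Sox10 line, so that line and treatment cannot be told apart here. Of 20 enteric glia genes 0 passed in edgeR, with 1 higher and 4 lower at an unadjusted p under 0.05 and 1 lower by DESeq2, and their median log2 ratio was 2.15 at IM24h and 3.17 in naïve mice. *Sox10* had 2.18 at IM24h and 5.59 in naïve mice (difference -3.41 ± 0.90 SE, adjusted p = 0.0983). Its naïve pulldowns held 576, 1220 and 688 CPM and its naïve inputs 19.7, 16.1 and 15.7 CPM, against 511, 44.2, 60.7 and 318 and 38.03, 27.2, 70.4 and 70.4 CPM at IM24h on the same scale. All 4 pulldowns at IM24h were lower and all 4 inputs higher than in naïve mice. *S100b* had 4.06 in naïve mice (difference 1.62 ± 0.53 SE, adjusted p = 0.189), and *Gfap* 3.303 (difference 0.04 ± 0.70 SE). A glial gene that did not pass is not shown to have kept its ratio. The chemokine list had a median log2 ratio of -0.40 in naïve mice and -2.04 at IM24h in this fit, where 0 of 18 passed in edgeR, 3 were lower at an unadjusted p under 0.05 and 3 by DESeq2. The list of recruited monocytes and macrophages had -0.01 and -1.26, with 0 of 11 in edgeR, 4 lower at an unadjusted p under 0.05 and 1 by DESeq2.

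The 5 genes named by the rule for a higher ratio at IM24h than in naïve mice were *Rn7s2* and *Rn7s1*, near-identical genes of the 7SL RNA of the signal recognition particle whose counts cannot be separated, *H1f4*, a linker histone, *Fam221b* and *Btc*. *Rn7s2* had 25.7, 123, 208 and 19.6 CPM in the IM24h pulldowns and 4.82, 7.43 and 4.12 CPM in the naïve ones, against 5.08, 6.704, 4.56 and 7.13 and 43.5, 68.2 and 46.1 CPM in the inputs (difference 7.25 ± 0.97 SE, adjusted p = 0.00408). The IM24h pulldowns lay above and the IM24h inputs below those of naïve mice. AY036118 differed by 7.33 ± 1.07 (adjusted p = 0.00806), with 2.68% to 13.99% of the totals in the naïve pulldowns and 16.1% to 33.5% in the naïve inputs. The share was thus higher in the inputs than in the pulldowns of naïve mice and the reverse at IM24h, and its part in the other differences from naïve mice was not tested. *Btc*, which encodes the EGF family ligand betacellulin, showed 24.2, 74.6, 74.8 and 65.7 CPM in the IM24h pulldowns against 2.86, 2.26 and 4.55 CPM in naïve ones, while its inputs were 7.81, 11.6, 7.76 and 4.14 and 11.3, 6.08 and 7.83 CPM (difference 4.31 ± 0.77 SE, adjusted p = 0.0234). *Akap5* showed 1661, 3772, 3957 and 863 against 999, 599 and 493 CPM in the pulldowns and 85.6, 57.1, 64.8 and 121 against 229.7, 254 and 195 CPM in the inputs (difference 3.34 ± 0.63 SE, adjusted p = 0.0302). For *Btc* the pulldowns were apart and the inputs overlapped between the conditions, and for *Akap5* the inputs were apart.

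The 5 genes named for a lower ratio than in naïve mice were *Capn12*, *Ace*, *Kank3*, *Fam151b* and *Lrrc61*. *Capn12*, a calpain protease gene, had 0 counts in all 3 naïve inputs and 318, 252, 138 and 14.3 CPM in the inputs at IM24h, against 77.3, 52.7, 42.7 and 91.7 CPM in the pulldowns at IM24h and 11, 0.664 and 42.4 CPM in those of naïve mice. *Lrrc61* had 10.1, 25.2 and 22.2 CPM in the naïve pulldowns and 0 counts in those at IM24h, and *Acyp1*, *Tmem18*, *Iah1* and *Isyna1* of the 10 genes with the most negative fitted differences above also passed here. *Hmgn2*, a nucleosome-binding protein gene with many processed copies that can share its reads, had 0.612, 0, 0.502 and 0.699 CPM in the IM24h pulldowns, 12.1, 5.18 and 11.7 CPM in naïve ones and 69.7, 26.2, 60.9 and 90.8 CPM in the inputs (adjusted p = 0.0137). With library totals 10 genes were higher and 440 lower, and with the reference genes 5 and 51. Without *RiboTag* libraries 2 and 3 of IM24h the counts were 202 and 359. Without any 1 of the 7 *ME* libraries 5 to 22 genes were higher and 1 to 13 lower, and without any 1 of the 3 naïve pulldowns 8 to 16 and 9 to 17. Without *RiboTag* IM24h library 1, 3 or 4 the higher count was 226, 131 and 80, and without library 1, 2, 3 or 4 the lower count was 637, 74, 183 and 152.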

How the data were processed

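Per the labels and the study's methods, RNA of the small bowel muscle layer was made into QuantSeq 3′ libraries, sequenced as single-end reads, trimmed and aligned to mm10 with STAR in Partek Flow. The authors deposited estimated counts per library, per Ensembl transcript for the pulldowns and per gene for the *muscularis externa*. Pulldown transcripts were summed to genes by symbol and joined with the gene table by symbol, and estimated counts were rounded to whole numbers. Libraries were grouped by the group entry of each library, which carries no replicate number. Tables of the authors' own comparisons (p-values, false discovery rates, ratios, fold changes and group means) were not used.

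The fit was edgeR 4.0.16 in R 4.3.3 (TMM scaling, filterByExpr, quasi-likelihood test, Benjamini-Hochberg adjustment), over the 8 libraries for the main comparison and over 16 and 14 libraries for the differences from IM72h and naïve mice. It was tested on simulated counts first. A gene passed at an adjusted p under 0.05 and more than 2-fold. CPM are TMM-scaled. Where no library of a fraction had more than 3 counts, the fold is a lower bound computed against 3 counts per library. Estimated counts carry no molecular identifiers, and bounds cover counting error only. Positions and kinds of genes are from GENCODE vM21.

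The comparison and the gene lists were chosen with earlier results of these data known, and no p-value over a list was computed. Named genes were every tested enteric glia gene, the 4 genes of each other list with the highest mean level (all of a list of 5 or fewer), the 10 largest differences in each direction among genes that passed, did not overlap between fractions and had a mean of at least 50 counts in the higher fraction (predicted genes and pseudogenes were left out), the 5 largest in each direction for the differences between times, and the 5 highest genes of each fraction. Some genes that these rules would name are not reported here. Other members of lists that passed were named after their values were seen. Alternatives were other scaling (DESeq2 size factors, library totals, the 3 reference genes), other filters, DESeq2 1.42.0, all groups in 1 fit, the transcript table of the *muscularis externa*, other thresholds, and leaving out each library in turn.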

Additional observations from a re-analysis of the deposited data

Results flagged for a closer look

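Single libraries lay far from the other 3 of their fraction in 22 of 317 sets of 4 values examined, where chance gives about 1 in 20. Among the *RiboTag* libraries, library 1 was apart for *Gpr37l1* (86.1 CPM), *Ano1* (21.5 CPM), *Esam* (1.32 CPM), *Ccl6* (127 CPM) and the summed secretory genes (2001 CPM). Library 2 was apart for *Rmrp* (70.8 CPM), and library 3 for *Cdh19* (48.5 CPM), *Dhh* (105 CPM), *Olfr1181* (81.1 CPM), *Muc6* (162 CPM) and *Wrap53* (71.5 CPM). Library 4 was apart for *Vip* (225 CPM) and *Mt1* (598 CPM). Among the *ME* libraries, library 1 was apart for *Adora2b* (3.24 CPM), library 2 for *Erbb3* (15.8 CPM) and library 3 for *Ccl9* (158 CPM). *ME* library 4 was apart for *Hsp90b1* (324 CPM), *Rmrp* (0.44 CPM), *Olfr1181* (0.55 CPM), *Prg4* (36.9 CPM), *Sec61g* (23.2 CPM) and the summed mesothelial genes (144 CPM).

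The ratio of *RiboTag* to *ME* differed between IM24h and IM72h by the test of that difference for 22 of the genes described. On the log2 scale, as IM24h minus IM72h, it differed by 6.32 for *Sox10*, 8.91 for *Sox2*, 7.73 for *Gpr37l1*, 5.83 for *Ngfr*, 4.92 for *Mcm7* and 2.94 for *Ncam1*. The values were 12.17 for *Msto1*, 11.90 for *Pcgf2*, 11.79 for *Ddx56*, 11.69 for *Wrap53* and 11.68 for *Naa80*, whose IM72h pulldowns had 0 counts, and 4.59 for *Gm42418*. They were -3.80 for *mt-Rnr2*, -5.77 for *mt-Rnr1*, -3.60 for CT010467.1, -2.76 for *Lars2*, -3.38 for *Rn7s1*, -7.41 for *Dnah14*, -6.88 for *Hmgn2*, -9.50 for *Kank3*, -12.11 for *Sec61g* and -9.42 for *Tmem215*. None of the 22 changed direction in any fit that left out 1 library, and 6 passed in all of these fits.

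Between IM24h and naïve mice the same test gave 20 of the genes described. The differences were 7.33 for AY036118, 3.75 for CT010467.1, 5.15 for *Gm42418*, 7.25 for *Rn7s2*, 6.93 for *Rn7s1*, 6.10 for *H1f4*, 5.05 for *Fam221b*, 4.31 for *Btc* and 3.34 for *Akap5*. They were -8.60 for *Acyp1*, -7.96 for *Tmem18*, -8.69 for *Iah1*, -8.75 for *Lrrc61*, -7.93 for *Isyna1*, -7.46 for *Dnah14*, -5.07 for *Hmgn2*, -9.35 for *Kank3*, -11.40 for *Capn12*, -9.77 for *Ace* and -8.83 for *Fam151b*. None of the 20 changed direction in any fit that left out 1 library, and 3 passed in all of these fits. In both comparisons the genes had been chosen by passing in these same libraries, so an unchanged direction is no independent support. Fitted values of more than 7 in size belong in most cases to a group of libraries at or near 0 counts and are not measures of a fold. Mouse line and treatment cannot be told apart in the comparison with naïve mice.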

How the results depend on the processing

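No paired analysis was possible because the library entries carry no replicate number that ties a pulldown to an input. The serial names of the IM24h libraries run on from the pulldowns to the inputs. No source says that this order pairs them, and no pairing by order was tried. Of 135 genes described with a value at IM24h, 90 passed, none of the 90 changed direction under any alternative run, and 48 passed in all fits that left out 1 library. The 90 had been chosen by passing in these same libraries, so their unchanged direction is no independent support. Of the 90, 31 no longer passed with library totals and 49 with the 3 reference genes. The cause of the changes below was not tested.

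With library totals 131 genes were higher in *RiboTag*. With the 3 reference genes 54 were higher and 428 lower, and with all groups in 1 fit 1225 were higher. DESeq2 gave 1534 and 1806, an unadjusted p gave 1490 and 2210, and the fit without *RiboTag* libraries 2 and 3, chosen after seeing the data, gave 1345 and 2231. Leaving out 1 library gave 317 to 1087 higher and 323 to 1786 lower. For the difference between IM24h and IM72h the higher counts were 379 with DESeq2 size factors, 1456 with library totals, 98 with the reference genes, 1597 with DESeq2, 3165 with an unadjusted p and 2279 without libraries 2 and 3, and the lower counts were 13 with the reference genes, 385 with DESeq2, 560 with an unadjusted p and 141 without libraries 2 and 3. Leaving out 1 library gave 30 to 2121 and 6 to 214. For the difference between IM24h and naïve mice the higher counts were 10 with library totals, 5 with the reference genes, 28 without the rRNA entries, 399 with DESeq2, 1020 with an unadjusted p and 202 without libraries 2 and 3, and the lower counts were 440 with library totals, 453 with DESeq2, 1257 with an unadjusted p and 359 without libraries 2 and 3. Leaving out 1 library gave 5 to 226 and 1 to 637.

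Enteric glia genes that were higher numbered 1 with library totals, 1 with the reference genes and 13 without libraries 2 and 3. Lower chemokine genes numbered 8 with DESeq2, 9 with an unadjusted p and 3 to 6 without 1 library. Lower smooth muscle genes numbered 3 with library totals, 1 with the reference genes, 2 without libraries 2 and 3 and 2 to 7 without 1 library. Lower ribosomal protein genes numbered 12 with the reference genes and 13 to 34 without 1 library.

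The log2 differences that turned sign belonged to genes that did not pass. With library totals they were -0.44 for *Csf1r*, -0.59 for *Nfkbia* and -0.80 for *Rplp1*, and with the reference genes -0.81, -0.78 and -1.03 for these, -0.22 for *Hsp90b1* and -0.028 for *Canx*. The median of all genes moved too, from -0.30 to -0.90 and -1.08, and each of these values lay above the median of its own fit. *Rplp1* is itself part of the reference scale, so its value there is no test. Without libraries 2 and 3 the values that turned sign were 0.051 for *Thbs1*, 0.14 for *Kcnq1ot1* and -0.41 for *Rplp1*. *Kcnq1ot1* was 0.047 with DESeq2 size factors, 0.068 with all groups in 1 fit and 0.055 with DESeq2. Leaving out 1 library gave -0.22 to 1.03 for *Foxd3*, -0.19 to 1.01 for *Ngfr*, -0.14 to 1.10 for *Mbp*, -0.10 to 0.48 for *Nfkbia*, -0.18 to 0.44 for *Rplp1*, -0.50 to 0.081 for *Thbs1*, -0.19 to 0.12 for *Kcnq1ot1* and -0.70 to 0.092 for *mt-Rnr2*.

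Of the 976 lower genes 196 were at 3 counts or fewer in every pulldown. Their size is known only as a bound, and smaller differences at such levels were not detectable. How far the share of AY036118 moves other ratios was not tested.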
